A study of Mus musculus with 12 samples.

Results

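Solute carriers are membrane proteins that move amino acids, sugars, nucleosides, vitamins, metals, ions and lipids across the plasma membrane and the membranes of mitochondria, lysosomes and the Golgi apparatus. The genes described here are those expressed in splenic follicular (FO) B cells. They were chosen by their measured counts: a protein-coding gene entered if its symbol had the pattern Slc, a family number, a and a member number, and if its molecule counts summed to at least 120 over the 12 libraries. Of 241 protein-coding genes with such a symbol, 226 had at least 1 count, 15 had none, and 114 reached the total. These 114 are of 22561 genes in the count table, and all 114 were among the 9431 genes tested.

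A resting B cell takes up few nutrients. On activation it grows and then divides, and it needs more amino acids for protein synthesis, nucleosides and folate for DNA, and exchange of nucleotides, phosphate and cofactors between cytosol and mitochondria. Heavy chain CD98 (Slc3a2) and its light chain LAT1 (Slc7a5) carry large neutral amino acids into activated lymphocytes, and leucine that enters in this way feeds the mTORC1 kinase. Solute carriers also sit in the endolysosome, where Slc15a4 is known to be needed for signalling by nucleic acid sensing Toll-like receptors.

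FO B cells were sorted from spleens of C57BL6 mice aged 10 weeks. One group was unstimulated, and the others were stimulated for 12 h with interferon-alpha (IFNα), with CpG, an unmethylated DNA oligonucleotide that activates Toll-like receptor 9, or with CpG + IFNα. There were 3 libraries per group. The study asked what IFNα adds to CpG in cells that CpG alone activates but does not turn into plasma cells. The sources used here do not give a culture time for the unstimulated cells, so that a stimulus and the time in culture cannot be told apart in any comparison with them, the interaction included. The sources also do not say that the 3 libraries of a group came from separate mice, and p-values measure the spread between these libraries.

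Libraries held 922450 to 2923865 molecule counts, and 1 count was worth 0.345 to 1.07 CPM, a count scaled to a common library size. CPM are shares of the messenger RNA of a library and not amounts per cell, and in bulk samples fewer cells of a type and less RNA per cell cannot be told apart. Because 1 molecule gives 1 count at its 3′ end, levels do not scale with transcript length. Reads beyond an annotated 3′ end can be missed, and the study's methods name an extension for Tlr9 only. Levels of different genes are compared here with that limit. The B cell markers Cd79a, Cd79b, Ms4a1 and Cd22 were present in every group, with a summed level of 4844 to 5787 CPM in unstimulated libraries, 5177 to 5990 with IFNα, 609 to 720.4 with CpG and 470.2 to 573 with CpG + IFNα. T cell markers summed to at most 3.64 CPM in any library, with Cd3g and Cd8a at 0, and NK cell markers to at most 1.23 CPM. Myeloid markers summed to 35.5 to 69.5 CPM in the unstimulated libraries, 13.99 to 25.9 with IFNα, 7.13 to 7.98 with CpG and 6.90 to 8.73 with CpG + IFNα. Marginal zone markers summed to 219 to 222 CPM in the unstimulated libraries, 88.8 to 123 with IFNα, 43.0 to 56.3 with CpG and 27.8 to 36.5 with CpG + IFNα. Fcer2a, Cr2 and Ighd, listed as follicular markers, summed to 4413 to 5057 CPM in the unstimulated libraries, 3057 to 3624 with IFNα, 931 to 1105 with CpG and 847 to 972 with CpG + IFNα. Most of this sum was Ighd, which averaged 3005 CPM in unstimulated cells and 2997 with IFNα. Fcer2a went from 1227 to 244 CPM and Cr2 from 412 to 81.5 CPM with IFNα. Cr2 (CD21) does not mark FO cells alone, since the study sorted them as CD21 intermediate and marginal zone cells as CD21 high. Plasma cell markers summed to 24.6 to 31.8 CPM in the unstimulated libraries, 27.97 to 35.9 with IFNα, 3.68 to 5.49 with CpG and 4.63 to 6.0002 with CpG + IFNα. Of the plasmacytoid dendritic cell markers, Siglech and Klk1 were at 0, and Bst2, which interferon also induces in other cells, averaged 69.2 CPM in unstimulated cells and 1105 CPM with IFNα. Haemoglobin and other erythroid transcripts differed among libraries of a group, from 57.4 to 345 CPM in the unstimulated libraries. The part of these transcripts in the levels of the carriers was not tested.

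The 114 carriers together made up 5325 ± 100.004 CPM of an unstimulated library (SD, n = 3), 4893 ± 103 after IFNα, 6466 ± 200.4 after CpG and 6616 ± 127 after both stimuli. The groups without CpG did not overlap with those with CpG. Without the mitochondrial carriers Slc25a3, Slc25a4 and Slc25a5, however, the sum was 4379.9 ± 59.8 CPM without stimulus, 4001 ± 188 after IFNα, 4323 ± 97.8 with CpG and 4720.0 ± 12.5 with both, and the unstimulated and CpG libraries overlapped. By substrate, 27 were mitochondrial carriers of family 25, 19 moved metal ions, 15 amino acids, 11 hexoses or monocarboxylates, 11 inorganic ions or protons, 10 nucleosides or vitamins, 5 nucleotide sugars, 5 phosphate, sulfate or organic ions, 4 lipids, choline or acyl-CoA, and 2 peptides and histidine. Slc5a3, a myo-inositol carrier, and Slc66a2 stood alone. A further 3 are named for a carrier and are not carriers themselves: Slc4a1ap, Slc7a6os and Slc9a3r1. Counts of carriers over all 114 members include these 3.

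The most abundant members were mitochondrial. Slc25a5, the main ADP/ATP carrier of proliferating cells, averaged 675 CPM over the 12 libraries and Slc25a3, the phosphate carrier, 671 CPM. The annotation also holds a processed pseudogene of Slc25a5, Slc25a5-ps, so reads that match both could be split or lost in counting and the level of Slc25a5 is uncertain to that extent. They were followed by Slc3a2 at 185 CPM, the glutamine and neutral amino acid carriers Slc38a1, Slc38a2 and Slc1a5 at 182, 168 and 160 CPM, and Slc25a4, another ADP/ATP carrier, at 123 CPM. Several carriers known from other blood cells were below the minimum. Slc7a7, the y+LAT1 light chain, had 19 counts in all, Slc7a11, the cystine carrier, 2, Slc16a3, a lactate exporter, 39, Slc40a1, the iron exporter, 14, Slc11a1, a phagosomal metal carrier, 4, and Slc4a1, the erythrocyte anion exchanger, 4. Slc43a1 had 65 counts and Slc46a3 had 96. The minimum total fell between Slc27a4, Slc44a1 and Slc38a6 with 115, 117 and 118 counts, and Slc37a3, Slc26a11 and Slc37a4 with 121, 123 and 126.

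A gene was called higher or lower at an adjusted p under 0.1 (edgeR quasi-likelihood test, Benjamini-Hochberg over all tested genes) and a fold change over 2. With CpG, 24 of the 114 carriers were called higher and 23 lower than in unstimulated cells, where 20.1% of all tested genes were called higher and 25.5% lower. With CpG + IFNα, 26 were higher and 24 lower, against 20.3% and 25.6% of tested genes. With IFNα alone, 3 were higher and 1 lower (4.56% and 4.07% of tested genes). Between CpG + IFNα and CpG, 2 were higher and 2 lower (2.95% and 2.01%). The interaction subtracts the response to IFNα without CpG from the response to IFNα in its presence, and it was called positive for 3 and negative for 4 (3.09% and 3.17%). The carriers as a set were thus called with CpG about as often as other genes. Among protein-coding genes with the same minimum total, 20.8% were called higher with CpG and 22.3% lower, and among the carriers 21.1% and 20.2%.

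The median log2 fold change of the carriers was 0.00 with CpG (all tested genes, -0.03), 0.02 with CpG + IFNα (-0.01), -0.09 with IFNα (-0.00) and 0.06 for CpG + IFNα against CpG (-0.04). Over the 4 comparisons between groups, 55 of the 114 carriers were called at least once and 59 never, while 53.8% of all tested genes were called at least once. The minimum total favours genes that are high with CpG, since 61.9% of all counts came from the 6 libraries with CpG. Of 14 carriers with under 60 counts in the 6 libraries without CpG, 10 were called higher with CpG, and of 6 carriers with under 60 counts in the libraries with CpG, 5 were called lower. The 94 carriers with at least 60 counts on both sides held 14 called higher and 18 called lower.

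**Figure D1:**
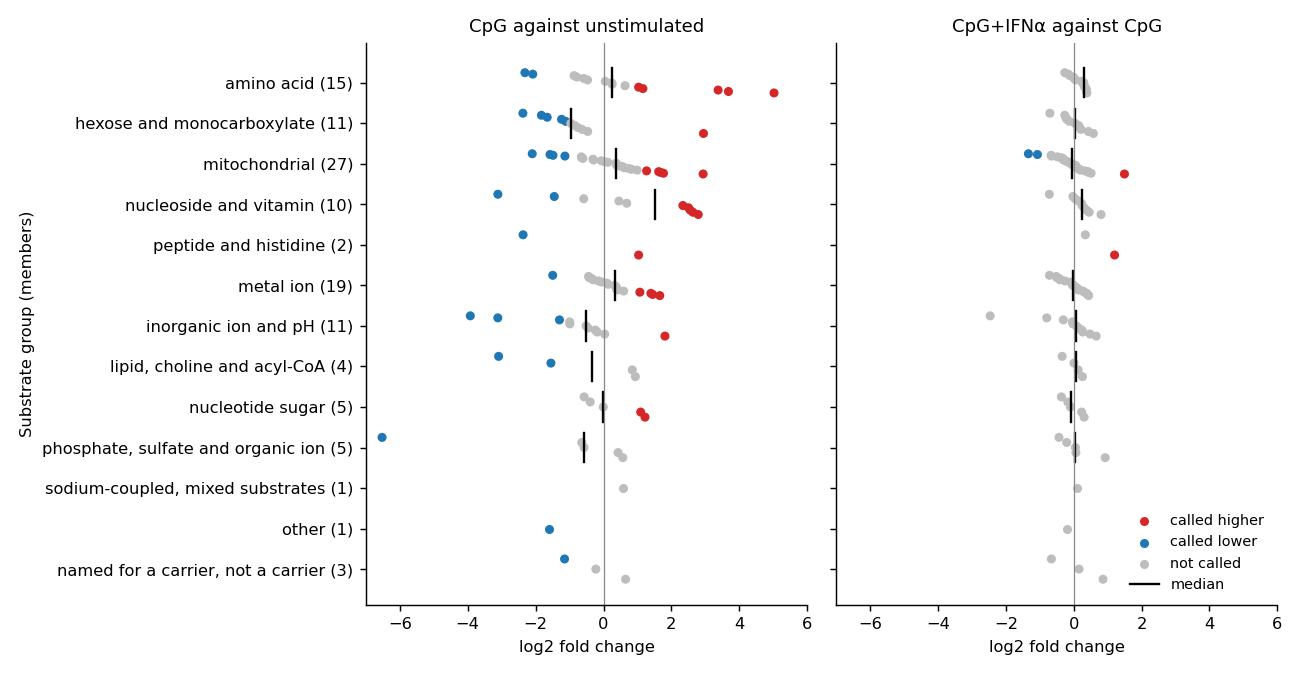
Fold change of each of the 114 carriers by substrate group. Each point is 1 gene, the x axis is the log2 fold change for CpG against unstimulated cells (left) and CpG + IFNα against CpG (right), red and blue points were called higher and lower, and black lines are medians of groups with at least 4 members; the nucleoside and vitamin group had the highest median with CpG (1.51) and the hexose and monocarboxylate group the lowest (-0.96), while 4 points are called on the right.

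Of the 15 amino acid carriers, 5 were higher and 2 lower with CpG (20.1% and 25.5% of all tested genes), with a median log2 fold change of 0.24. Of the 5, Slc1a4 and Slc7a3 had under 60 counts in the 6 libraries without CpG and reached the minimum total mainly through the others. Slc7a5 measured 12.7, 8.56 and 20.3 CPM in the unstimulated libraries, 32.3, 37.7 and 28.2 with IFNα, 159.6, 153 and 133 with CpG and 197, 186 and 174 with CpG + IFNα. The 3 IFNα libraries lay above the 3 unstimulated ones, and all 6 libraries with CpG lay far above both. Slc7a5 rose with CpG (log2 fold change 3.38 ± 0.19, adjusted p = 2.1e-16; errors of fold changes are SE), with CpG + IFNα (3.70 ± 0.19, adjusted p = 5.6e-18) and with IFNα alone (1.22 ± 0.25, adjusted p = 3.8e-04). The call with IFNα alone ended without unstimulated replicate 2, where the log2 fold change was 0.9987. Between CpG + IFNα and CpG the log2 difference was 0.33 ± 0.12, adjusted p = 0.073, under the fold threshold.

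Its partner Slc3a2 was abundant in every group, at 145, 135 and 131 CPM in the unstimulated libraries, 107, 126 and 96.9 with IFNα, 219, 237 and 183 with CpG and 277, 296 and 261 with CpG + IFNα. Slc3a2 was called higher with CpG + IFNα (1.03 ± 0.12, adjusted p = 7.4e-09), a call at the edge of the fold threshold that ended without CpG + IFNα replicate 2, at 0.9988, with library size only (0.99) and with counts drawn to the smallest total (0.91). With CpG alone its log2 fold change was 0.64 ± 0.13, adjusted p = 4.6e-05. The light chain thus moved over a wider range than the heavy chain. The ratio of Slc7a5 to Slc3a2 levels was 0.102 ± 0.0476 without stimulus, 0.297 ± 0.00534 after IFNα, 0.699 ± 0.0492 after CpG and 0.669 ± 0.0403 after both (SD, n = 3).

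Carriers of cationic amino acids such as arginine and lysine also rose. Slc7a1 (CAT1) measured 66.4, 62.0 and 67.1 CPM in the unstimulated libraries, 39.4, 63.2 and 51.1 with IFNα, 142, 130.4 and 129.8 with CpG and 164, 168 and 165 with CpG + IFNα, and rose with CpG (1.04 ± 0.14, adjusted p = 6.6e-08; 0.98 and no longer called with counts drawn to the smallest library) and with CpG + IFNα (1.34 ± 0.13, adjusted p = 1.2e-10). Slc7a3 (CAT3) was near the detection limit without CpG and well above it with CpG, at 1.82, 1.07 and 4.41 CPM in the unstimulated libraries, 3.03, 1.82 and 2.29 with IFNα, 88.4, 90.5 and 76.4 with CpG and 86.2, 89.7 and 80.7 with CpG + IFNα. Its log2 fold change was 5.03 ± 0.28, adjusted p = 1.5e-16 with CpG and 5.04 ± 0.28, adjusted p = 6.6e-17 with CpG + IFNα. The ratio of Slc7a3 to Slc7a1 levels went from 0.0368 ± 0.0256 to 0.635 ± 0.0538 with CpG. Slc7a6 (y+LAT2), another light chain of CD98, rose to a lesser extent (1.16 ± 0.21, adjusted p = 1.1e-05 with CpG and 1.46 ± 0.20, adjusted p = 8.4e-08 with CpG + IFNα).

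Slc1a4 (ASCT1), a carrier of serine and other small neutral amino acids, measured 1.82, 0 and 0.882 CPM in the unstimulated libraries, 6.05, 8.51 and 4.58 with IFNα, 15.96, 10.7 and 12.5 with CpG and 17.5, 15.2 and 13.4 with CpG + IFNα. The unstimulated libraries held 3 counts in all, so the size of the change is known only within wide limits. The ratio of its summed counts to the unstimulated ones, scaled by library, was 6.96 with IFNα (95% exact interval 2.13 to 35.9), 13.8 with CpG (4.53 to 68.8) and 16.1 with CpG + IFNα (5.36 to 79.5), intervals that cover counting error only. All 3 differences were called (adjusted p = 0.0034, 8.4e-07 and 1.0e-07). Its relative Slc1a5 (ASCT2), the glutamine carrier, was abundant and showed no such rise, at 170.2, 204 and 199 CPM in the unstimulated libraries, 120.1, 144 and 134 with IFNα, 144, 135 and 135 with CpG and 176, 176 and 181 with CpG + IFNα.

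The promoter of Slc1a4 held the core of the CARE, the element of amino acid response genes that ATF4 and C/EBP proteins bind, written TGATGNAA and searched on both strands. It is shown because Slc1a4 was called in every comparison with unstimulated cells. The stretch is on GRCm38.p6 at chr11:20332694-20332813, minus strand, from RefSeq, with the match in capitals as it reads on the other strand, beginning 4 bases before the transcript start:
Slc1a4: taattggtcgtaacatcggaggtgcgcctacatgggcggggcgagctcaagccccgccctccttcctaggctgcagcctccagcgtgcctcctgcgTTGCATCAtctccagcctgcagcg
Such a match was in 3.97% of 32851 promoter windows of 300 bases (250 before and 50 after the start), and in the windows of 2 of 80 carriers that had an entry, Slc1a4 and Slc50a1, a gene that fell with CpG. Atf4 itself measured 458 ± 38.0 CPM without stimulus, 356 ± 24.96 after IFNα, 603 ± 22.9 after CpG and 826 ± 44.3 after both. The log2 fold change of Atf4 was -0.36 ± 0.11, adjusted p = 0.017 with IFNα. It was 0.39 ± 0.11, adjusted p = 0.0016 with CpG and 0.85 ± 0.11, adjusted p = 1.4e-08 with CpG + IFNα, all under the fold threshold. Whether ATF4 acts on Slc1a4 in these cells was not tested. Atf4 was called in none of the comparisons.

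Of the 5 carriers of family 38, known for moving neutral amino acids with sodium, Slc38a1 was the most abundant and measured 292, 239 and 309.7 CPM in the unstimulated libraries, 148, 183 and 172 with IFNα, 162, 149.7 and 149.8 with CpG and 109, 133 and 141 with CpG + IFNα. The unstimulated libraries lay above all others, and Slc38a1 was called lower with CpG + IFNα (-1.13 ± 0.12, adjusted p = 7.9e-10), while the changes with CpG (-0.87 ± 0.12, adjusted p = 2.0e-07) and IFNα (-0.73 ± 0.12, adjusted p = 3.2e-05) stayed under the fold threshold. Slc38a2 (SNAT2) was not called, with a log2 fold change of -0.58 for CpG and -0.69 for CpG + IFNα. Slc38a10 (-0.79 and -0.94) and Slc38a7 (0.24 and 0.61) were not called either, with values of opposite sign. Slc38a9, which senses arginine in the lysosome and reports to mTORC1, fell from 34.6, 50.3 and 55.6 CPM to 11.7, 7.13 and 8.99 CPM with CpG (-2.32 ± 0.25, adjusted p = 8.4e-10). Slc43a2 (LAT4), a leucine carrier that works without CD98, fell from 38.2, 44.9 and 25.6 to 6.75, 12.8 and 6.49 CPM (-2.08 ± 0.29, adjusted p = 1.6e-07).

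**Figure D2:**
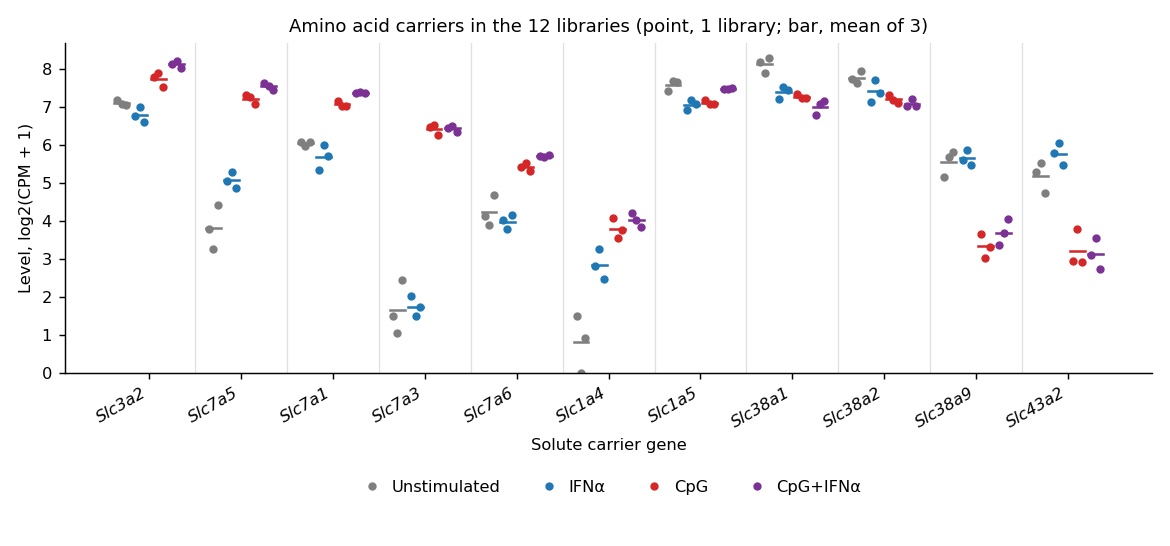
Levels of 11 amino acid carriers in the 12 libraries. The y axis is log2(CPM + 1), each point is 1 library, each short bar the mean of 3, and colours are the 4 groups; Slc7a5, Slc7a1, Slc7a3 and Slc7a6 are higher in every library with CpG than in every library without it, and Slc38a9 and Slc43a2 are lower.

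Of the 11 hexose and monocarboxylate carriers, 1 was higher and 5 lower with CpG, against 20.1% and 25.5% of all tested genes, with a median of -0.96. Of the 5, Slc2a6 and Slc37a4 had under 60 counts in the 6 libraries with CpG and reached the minimum total mainly through those without it. The one that rose was Slc16a1 (MCT1), which moves lactate and pyruvate with protons. It measured 15.5, 16.04 and 18.5 CPM in the unstimulated libraries, 8.07, 7.90 and 15.3 with IFNα, 122, 129.7 and 137 with CpG and 141, 118 and 141 with CpG + IFNα, and its log2 fold change was 2.95 ± 0.19, adjusted p = 2.2e-15 with CpG and 2.98 ± 0.18, adjusted p = 8.4e-16 with CpG + IFNα. Bsg (basigin), the chaperone that brings Slc16a1 to the surface, went from 81.8 ± 1.34 to 171 ± 1.82 CPM (1.06 ± 0.12, adjusted p = 1.7e-09). Slc16a1 overlaps with the predicted gene Gm43581 on the same strand, and reads of the overlap may be split between them.

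No glucose carrier was called higher with CpG at 12 h. Slc2a1 (GLUT1) measured 63.7, 47.1 and 39.7 CPM in the unstimulated libraries, 28.3, 25.5 and 22.1 with IFNα, 41.1, 32.1 and 35.4 with CpG and 38.2, 40.7 and 41.1 with CpG + IFNα. The IFNα libraries lay below all others, and its log2 fold change was -0.47 ± 0.18, adjusted p = 0.023 with CpG and -0.996 ± 0.20, adjusted p = 3.4e-04 with IFNα, just under the fold threshold. Slc2a3 (GLUT3) fell from 34.6, 24.6 and 23.8 CPM to 6.0, 7.93 and 12.3 CPM with CpG + IFNα (-1.66 ± 0.29, adjusted p = 4.7e-06), and was not called with CpG alone (-0.96). Slc2a6 (GLUT6), of the lysosome, was called lower in both CpG conditions (-1.12 and -1.38), but neither call held without unstimulated replicate 1 (-0.55 and -0.82), and the call with CpG also ended without CpG replicate 1 or 3 (-0.91 and -0.98). The ratio of Slc16a1 to Slc2a1 levels was 0.350 ± 0.112 in unstimulated cells and 3.62 ± 0.583 with CpG.

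Slc50a1 (SWEET1), a sugar exporter of the Golgi, fell from 126, 122 and 114 to 35.6, 36.4 and 30.5 CPM with CpG (-1.83 ± 0.15, adjusted p = 6.9e-13) and to 26.7, 27.6 and 32.4 CPM with CpG + IFNα. Slc37a4, which brings glucose 6-phosphate into the endoplasmic reticulum, fell from 13.6, 12.8 and 17.6 to 1.84, 4.28 and 2.50 CPM (-2.38 ± 0.45, adjusted p = 2.0e-05), and its relatives Slc37a1 and Slc37a2 fell as well (-1.24 and -1.66). Txnip, an arrestin-like protein that takes glucose carriers off the surface, dropped from 491 ± 66.7 to 49.0 ± 2.34 CPM (-3.32 ± 0.13, adjusted p = 2.6e-20).

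Nucleoside and vitamin carriers had the highest median with CpG, 1.51, with 5 of 10 called higher and 2 lower (20.1% and 25.5% of all tested genes). Of these 10, 4 (Slc19a2, Slc29a1, Slc29a2 and Slc5a6) had under 60 counts in the 6 libraries without CpG, so that they reached the minimum total mainly through the libraries with CpG, and 3 of the 4 were among those called higher. The median and the count of the group are therefore a description. Their summed level was 189 ± 14.2 CPM in unstimulated cells and 323 ± 10.0 CPM with CpG. Nucleoside carriers of different kinds moved in opposite directions. Slc28a2 (CNT2), which concentrates purine nucleosides with sodium, measured 81.0, 72.7 and 79.4 CPM in the unstimulated libraries, 83.7, 85.1 and 79.4 with IFNα, 6.75, 9.98 and 9.98 with CpG and 4.91, 4.83 and 6.68 with CpG + IFNα. Slc29a1 (ENT1), which lets nucleosides equilibrate across the membrane, measured 4.55, 10.7 and 9.71 CPM in the unstimulated libraries, 2.02, 5.47 and 4.58 with IFNα, 51.6, 47.0 and 42.9 with CpG and 51.3, 45.5 and 60.1 with CpG + IFNα. Slc28a2 fell (-3.11 ± 0.20, adjusted p = 3.6e-15 with CpG, -3.83 ± 0.21, adjusted p = 3.1e-17 with CpG + IFNα) and Slc29a1 rose (2.51 ± 0.26, adjusted p = 4.5e-10 and 2.65 ± 0.25, adjusted p = 5.2e-11), and no library with CpG overlapped with one without it for either gene. The ratio of Slc29a1 to Slc28a2 went from 0.108 ± 0.0470 to 5.55 ± 1.82 with CpG and 9.62 ± 0.742 with CpG + IFNα.

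Slc29a2 (ENT2) rose from 3.64, 2.14 and 1.76 to 10.4, 15.0 and 14.0 CPM (2.34 ± 0.45, adjusted p = 2.4e-05), and the lysosomal Slc29a3 (ENT3) fell from 18.2, 42.8 and 30.9 to 13.5, 12.1 and 7.99 CPM (-1.45 ± 0.31, adjusted p = 1.3e-04). Slc43a3, a carrier of purine nucleobases, rose from 7.28, 16.04 and 13.2 to 56.5, 69.1 and 85.4 CPM (2.55 ± 0.25, adjusted p = 7.8e-11). Among the vitamin carriers, Slc19a1, the reduced folate carrier, rose from 14.6, 13.9 and 16.8 CPM to 107, 106 and 103 CPM with CpG and 123, 132 and 115 CPM with CpG + IFNα (2.79 ± 0.18, adjusted p = 7.3e-15 and 3.02 ± 0.18, adjusted p = 3.3e-16). The thiamine carrier Slc19a2 rose from 4.55, 2.14 and 0.882 to 11.1, 27.1 and 12.0 CPM (2.64 ± 0.50, adjusted p = 2.3e-05). The riboflavin carrier Slc52a2 (0.68), the biotin and pantothenate carrier Slc5a6 (0.45) and the ascorbate carrier Slc23a2 (-0.58) were not called.

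**Figure D3:**
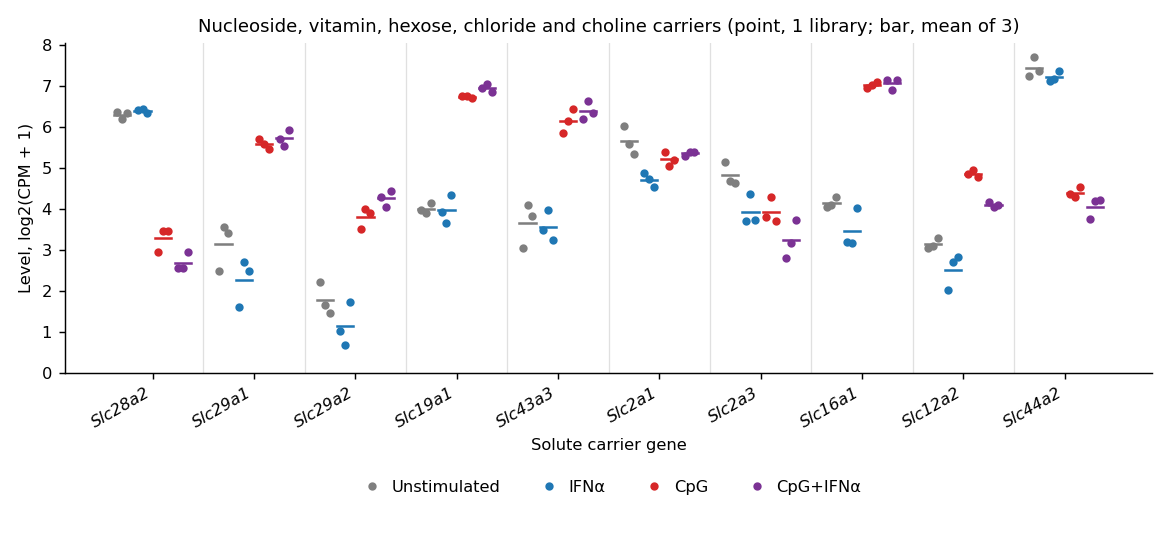
Levels of 10 nucleoside, vitamin, hexose, monocarboxylate, chloride and choline carriers in the 12 libraries. The y axis is log2(CPM + 1), each point is 1 library, each short bar the mean of 3, and colours are the 4 groups; Slc28a2 and Slc44a2 are lower in every library with CpG than in every library without it, while Slc29a1, Slc29a2, Slc19a1, Slc43a3, Slc16a1 and Slc12a2 are higher.

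Of the 27 mitochondrial carriers, 5 were higher and 4 lower with CpG (median 0.38), and 7 higher and 3 lower with CpG + IFNα (median 0.27). The shares of all tested genes were 20.1% and 25.5%, and 20.3% and 25.6%. Of those called with CpG, Slc25a15 had under 60 counts in the 6 libraries without CpG, and Slc25a45 under 60 in those with CpG. Both reached the minimum total mainly through the libraries where they were high. Their summed level rose from 1880.1 ± 39.5 to 3175 ± 145 CPM with CpG, most of it in Slc25a5 and Slc25a3. Without Slc25a3, Slc25a4 and Slc25a5, the sum was 935 ± 29.7 CPM in unstimulated cells and 1032 ± 40.6 CPM with CpG. Slc25a5 measured 336, 313 and 368 CPM in the unstimulated libraries, 324, 271 and 321 with IFNα, 1135, 985 and 1023 with CpG and 1041, 932 and 1051 with CpG + IFNα (1.63 ± 0.11, adjusted p = 2.6e-14 with CpG). Slc25a3 had a log2 fold change of 0.82 ± 0.11, adjusted p = 6.3e-08 with CpG and was not called.

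The other ADP/ATP carrier, Slc25a4, was lower with IFNα in the presence and absence of CpG, by less than the fold threshold. It measured 106, 93.1 and 104 CPM in the unstimulated libraries, 75.7, 53.5 and 55.7 with IFNα, 201, 190.3 and 210.2 with CpG and 130.4, 124 and 126 with CpG + IFNα. The IFNα libraries lay below the unstimulated ones (-0.74 ± 0.14, adjusted p = 2.1e-04) and the CpG + IFNα libraries below the CpG ones (-0.66 ± 0.11, adjusted p = 3.9e-05). The ratio of Slc25a4 to Slc25a5 was 0.298 ± 0.0157 without stimulus, 0.202 ± 0.0301 after IFNα, 0.192 ± 0.0140 after CpG and 0.126 ± 0.00633 after both.

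Both pyrimidine nucleotide carriers of the inner membrane changed, in opposite directions. Slc25a33 measured 10.0, 6.42 and 14.1 CPM in the unstimulated libraries, 8.07, 7.90 and 9.16 with IFNα, 95.8, 87.0 and 59.9 with CpG and 92.7, 76.2 and 84.3 with CpG + IFNα and rose with CpG (2.94 ± 0.24, adjusted p = 1.7e-12). Slc25a36 fell from 129, 87.7 and 91.8 to 38.7, 37.8 and 28.5 CPM (-1.58 ± 0.18, adjusted p = 1.8e-09). Slc25a32, which brings folate or flavin into mitochondria, rose from 16.4, 22.5 and 22.1 to 46.7, 47.0 and 52.4 CPM (1.27 ± 0.20, adjusted p = 1.6e-06). The ornithine carrier Slc25a15 rose from 8.19, 5.35 and 9.71 to 26.4, 23.5 and 26.5 CPM (1.69 ± 0.30, adjusted p = 9.6e-06). Slc25a15 reached the minimum total mainly through the libraries with CpG, where it was high. Slc25a39, needed for glutathione import, rose from 26.4, 44.9 and 49.4 to 146, 125 and 139 CPM (1.77 ± 0.17, adjusted p = 3.2e-11). Slc25a37 (mitoferrin 1), an iron importer, fell from 80.1, 77.01 and 65.3 to 23.3, 31.4 and 24.96 CPM (-1.49 ± 0.18, adjusted p = 5.7e-09), and measured 39.4, 41.3 and 38.2 CPM with IFNα (-0.90 ± 0.17, adjusted p = 1.7e-04, under the fold threshold). Slc25a37 is high in erythroid cells. In the unstimulated libraries, replicates 1, 2 and 3 held 345, 157 and 57.4 CPM of erythroid transcripts and 80.1, 77.01 and 65.3 CPM of Slc25a37. Erythroid transcripts were also lower with CpG, at 60.8, 18.5 and 4.99 CPM, and with CpG + IFNα, at 72.0, 22.8 and 5.65 CPM, and their part in the fall of Slc25a37 was not tested. The NAD carrier Slc25a51 (-0.29) was not called.

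Slc16a1 and Slc25a33 are among the carriers whose promoter window held the E-box CACGTG, the palindrome that Myc with Max and related proteins bind. Both are shown because they rose most with CpG in their substrate groups, with the E-box in capitals. The Slc16a1 stretch is at chr3:104638424-104638543 on GRCm38.p6, plus strand, with the E-box 200 bases before the start, and the Slc25a33 stretch at chr4:149774248-149774367, minus strand, with the E-box 8 bases before the start:
Slc16a1: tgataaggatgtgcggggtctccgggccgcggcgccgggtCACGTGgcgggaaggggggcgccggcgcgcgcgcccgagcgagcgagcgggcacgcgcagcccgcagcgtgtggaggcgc
Slc25a33: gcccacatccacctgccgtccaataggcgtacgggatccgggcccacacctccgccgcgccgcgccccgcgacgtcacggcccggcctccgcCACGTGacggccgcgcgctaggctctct
The E-box was in 7.15% of all windows and in 14 of the 107 windows of the 80 carriers with an entry, each of a different gene. The calls of these 14 differed. Slc16a1, Slc25a15, Slc25a33, Slc29a1 and Slc31a2 were called higher with CpG, Slc25a36 was called lower, and Slc12a9, Slc20a1, Slc25a1, Slc30a5, Slc33a1, Slc35a5, Slc37a3 and Slc38a7 were not called with CpG. Myc measured 179 ± 41.8 CPM in unstimulated cells, 38.0 ± 10.9 with IFNα (-2.28 ± 0.18, adjusted p = 4.7e-12), 568 ± 45.2 with CpG (1.66 ± 0.14, adjusted p = 2.9e-12) and 709 ± 55.9 with CpG + IFNα.

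Metal ion carriers changed little in sum, from 470.1 ± 5.09 CPM in unstimulated cells to 522 ± 31.5 CPM with CpG, and 14 of 19 were not called in that comparison. Those called higher were the zinc importer Slc39a6 (ZIP6), from 21.8, 18.2 and 16.8 to 51.0, 55.6 and 71.9 CPM (1.66 ± 0.21, adjusted p = 1.8e-08), Slc39a14 (ZIP14), which also takes up iron and manganese (1.45), Slc39a5 (1.397) and the copper-related Slc31a2 (CTR2, 1.07). Of these 4, Slc39a14, Slc39a5 and Slc31a2 had under 60 counts in the 6 libraries without CpG and reached the minimum total mainly through those where they were high. The shares of all tested genes called higher and lower were 20.1% and 25.5%. The zinc carrier Slc39a13 (ZIP13) was called lower, at 22.7, 15.0 and 19.4 CPM in the unstimulated libraries, 5.04, 12.8 and 6.87 with IFNα, 6.14, 7.13 and 6.99 with CpG and 8.73, 6.55 and 7.19 with CpG + IFNα. Its log2 fold change was -1.497 ± 0.33, adjusted p = 1.9e-04 with CpG and -1.13 ± 0.33, adjusted p = 0.014 with IFNα, and the latter call ended without unstimulated replicate 1 (-0.98), IFNα replicate 1 (-0.92) or IFNα replicate 3 (-0.98). Whether counting used strand is not given in the sources used here, and Slc39a13, Slc39a6 and Slc39a5 overlap with Psmc3, Elp2 and Ankrd52, so that reads may be shared.

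Slc39a10 (ZIP10), a zinc importer needed by B cells for survival and receptor signalling, was called in none of the comparisons, and its libraries differed within groups: 18.2, 15.0 and 22.1 CPM in the unstimulated libraries, 16.1, 15.2 and 29.0 with IFNα, 14.1, 19.2 and 36.9 with CpG and 19.1, 17.2 and 40.6 with CpG + IFNα. Replicate 3 was the highest in every group. The zinc exporters Slc30a1 of the plasma membrane and Slc30a5 of the Golgi stood at -0.44 and -0.14 on the log2 scale after CpG, and the iron carrier Slc11a2 (DMT1) at 0.13, all uncalled. The transferrin receptor gene Tfrc rose from 48.5 ± 11.8 to 180.1 ± 22.0 CPM (1.88 ± 0.16, adjusted p = 6.0e-12) and the ferritin heavy chain Fth1 fell from 2028 ± 197 to 693 ± 58.4 CPM (-1.55 ± 0.11, adjusted p = 7.2e-14).

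Of the 11 carriers of inorganic ions and protons, 1 was higher and 3 lower with CpG (20.1% and 25.5% of all tested genes). The one that rose, Slc12a2, had under 60 counts in the 6 libraries without CpG, and of the 3 that fell Slc26a11 had under 60 in those with CpG. Slc12a2 (NKCC1), which brings sodium, potassium and chloride in, measured 7.28, 7.49 and 8.82 CPM in the unstimulated libraries, 3.03, 5.47 and 6.11 with IFNα, 27.6, 29.9 and 26.5 with CpG and 16.9, 15.5 and 15.9 with CpG + IFNα. Slc12a2 rose (1.81 ± 0.28, adjusted p = 8.1e-07 with CpG, 1.02 ± 0.29, adjusted p = 0.0027 with CpG + IFNα). The 3 CpG + IFNα libraries held less Slc12a2 than the 3 CpG libraries (-0.79 ± 0.21, adjusted p = 0.0084), a difference under the fold threshold, and the call with CpG + IFNα ended without unstimulated replicate 1 (0.98) and with library size only (0.99). The bicarbonate carriers Slc4a7 (-0.46) and Slc4a2 (-0.51) were not called. Slc26a11, a lysosomal anion carrier, measured 11.8, 13.9 and 30.9 CPM without stimulus and 0, 0 and 0.514 CPM with CpG + IFNα, where 1 count was found, a ratio of 129 (95% exact interval 22.2 to 5162, counting error only).

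Slc44a2, a choline carrier of the plasma membrane and mitochondria, had the smallest p-value of the carriers that fell. It measured 149, 208 and 164 CPM in the unstimulated libraries, 139, 144 and 164 with IFNα, 19.6, 18.5 and 22.0 with CpG and 12.5, 17.2 and 17.5 with CpG + IFNα (-3.09 ± 0.16, adjusted p = 3.2e-17 with CpG, -3.43 ± 0.16, adjusted p = 1.1e-18 with CpG + IFNα). Without Slc44a2, the other 3 carriers of lipids, choline or acyl-CoA summed to 62.8 ± 8.90 CPM in unstimulated cells, 77.8 ± 5.71 with CpG and 85.1 ± 1.25 with CpG + IFNα. Of these, Slc10a3 was called higher with CpG + IFNα (1.07 ± 0.17, adjusted p = 1.2e-06) and was under the fold threshold with CpG (0.94 ± 0.18, adjusted p = 1.8e-05). Slc10a3 overlaps with Ubl4a on the same strand, and reads of the overlap may be split between them. Slc10a7 fell from 20.9, 23.5 and 35.3 to 6.75, 8.55 and 11.5 CPM with CpG (-1.55 ± 0.27, adjusted p = 8.8e-06), and its call with CpG + IFNα (-1.29) ended without unstimulated replicate 3 (-0.9981). Slc14a1, the urea carrier, measured 24.6, 39.6 and 14.1 CPM in unstimulated libraries, 17.2, 33.4 and 19.8 with IFNα, 0, 0 and 0.499 with CpG and 0.545, 0.345 and 0.514 with CpG + IFNα. CpG libraries held 1 count of it and CpG + IFNα libraries 3, which gives ratios of 127 (95% exact interval 22.2 to 5085) and 56.2 (18.6 to 278), adjusted p = 2.5e-10 and 8.7e-11. With 178 counts in the libraries without CpG and 4 in those with it, Slc14a1 reached the minimum total through those where it was high. Slc14a1 is also known from erythroid cells, whose transcripts measured 345, 157 and 57.4 CPM in the same unstimulated libraries, and their part in its level was not tested.

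Golgi nucleotide sugar carriers of family 35a had 2 of 5 called higher with CpG (20.1% of all tested genes). Slc35a4 rose from 77.3, 51.3 and 69.7 to 174, 159.7 and 135 CPM (1.22 ± 0.14, adjusted p = 3.5e-09) and Slc35a3, the UDP-N-acetylglucosamine carrier, from 21.8, 16.04 and 16.8 to 46.0, 40.6 and 32.0 CPM (1.096 ± 0.23, adjusted p = 7.1e-05), a call that ended without CpG replicate 1 (0.99). Without these, the other 3 summed to 60.5 ± 12.9 CPM in unstimulated cells and 49.8 ± 4.96 CPM with CpG. Slc35a1, which carries CMP-sialic acid, and Slc35a2, which carries UDP-galactose, had log2 fold changes of -0.01 and -0.57. The phosphate importers Slc20a1 and Slc20a2 (0.43 and 0.57) were not called. Slc66a2 fell (-1.60 ± 0.25, adjusted p = 1.3e-06), as did Slc9a3r1 (NHERF1), a scaffold that ties exchangers to the cortex (-1.15 ± 0.18, adjusted p = 7.5e-07 with CpG and -1.81 ± 0.18, adjusted p = 1.2e-10 with CpG + IFNα).

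**Figure D4:**
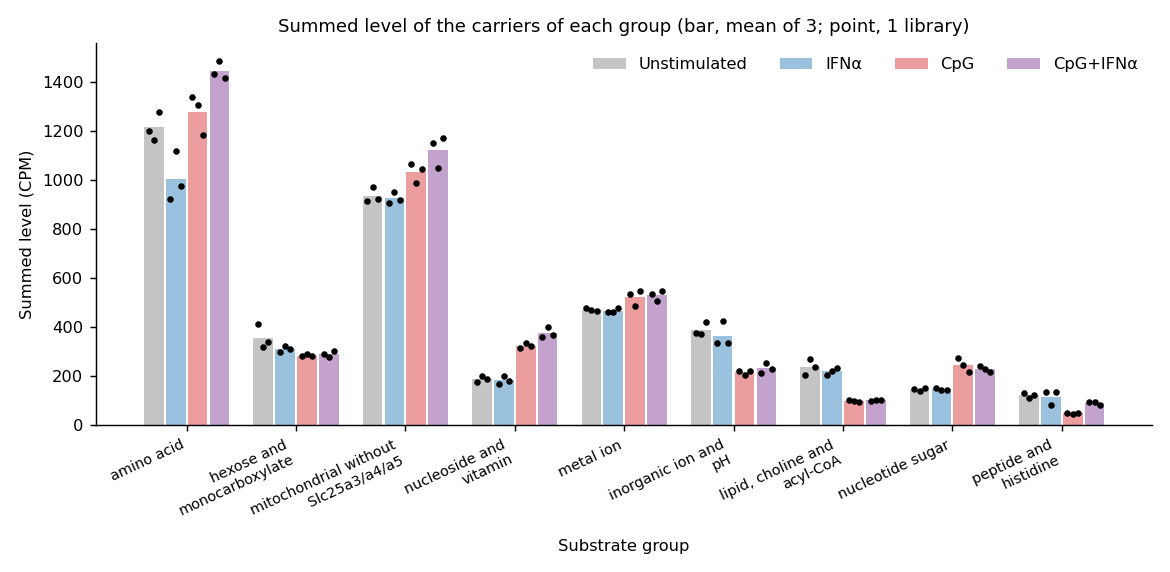
Summed level of the carriers of 9 substrate groups. The y axis is the sum of CPM over the members, bars are means of 3 libraries, points single libraries and colours the 4 groups. Nucleoside and vitamin, nucleotide sugar, metal ion and the plotted mitochondrial carriers are higher in every library with CpG than in every one without it. The gap is narrow for metal ions (477 and 487 CPM) and mitochondrial carriers (969 and 986 CPM). Inorganic ion and lipid carriers are lower, the latter through Slc44a2. The nucleotide sugar carriers are higher through Slc35a4 and Slc35a3. The mitochondrial sum leaves out Slc25a3, Slc25a4 and Slc25a5.

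The carriers of family 15 move peptides and histidine, and the members found here sit in the endolysosome, where Toll-like receptor 9 signals. Slc15a4 measured 122, 92.0 and 108 CPM in the unstimulated libraries, 112, 60.8 and 106 with IFNα, 19.0, 17.8 and 24.5 with CpG and 33.8, 21.7 and 25.2 with CpG + IFNα and fell with CpG (-2.37 ± 0.21, adjusted p = 1.3e-11) and with CpG + IFNα (-2.03 ± 0.20, adjusted p = 6.4e-11). Slc15a3 measured 9.10, 18.2 and 13.2 CPM in the unstimulated libraries, 21.2, 21.9 and 27.5 with IFNα, 28.9, 29.2 and 24.5 with CpG and 59.5, 72.1 and 56.0 with CpG + IFNα. Its CpG + IFNα libraries lay above all others. Slc15a3 rose with CpG (1.03 ± 0.25, adjusted p = 5.5e-04), a call that ended without unstimulated replicate 1 (0.83), with RLE scaling (0.9989) and with counts drawn to the smallest total (0.88), and it was higher with CpG + IFNα than with CpG (1.21 ± 0.17, adjusted p = 1.9e-06; 0.85 and under the fold threshold with counts drawn to the smallest library). With IFNα alone its log2 fold change was 0.82 ± 0.27, adjusted p = 0.028, under the fold threshold, and the interaction was 0.38 ± 0.33, adjusted p = 0.54. The ratio of Slc15a3 to Slc15a4 was 0.132 ± 0.0620 in unstimulated cells, 1.39 ± 0.339 with CpG and 2.43 ± 0.800 with CpG + IFNα. Irf5, the transcription factor that acts downstream of Slc15a4 in endosomal Toll-like receptor signalling, measured 229.9 ± 6.53 CPM in unstimulated cells, 121 ± 6.84 with CpG (-0.93 ± 0.12, adjusted p = 3.0e-08) and 107 ± 14.3 with CpG + IFNα (-1.11 ± 0.12, adjusted p = 5.6e-10).

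IFNα raised 1 carrier by a fold change over 2 both alone and on top of CpG: Slc25a22, the mitochondrial glutamate carrier. It measured 40.9, 46.0 and 45.9 CPM in the unstimulated libraries, 114, 142 and 109.9 with IFNα, 67.5, 45.6 and 73.4 with CpG and 177, 158 and 201 with CpG + IFNα. Libraries with IFNα lay above all libraries without it. The log2 fold change was 1.47 ± 0.17, adjusted p = 3.2e-08 for IFNα against unstimulated and 1.496 ± 0.14, adjusted p = 3.6e-10 for CpG + IFNα against CpG, and the interaction was 0.02 ± 0.23 (adjusted p = 0.97). The gene lies at chr7:141429744-141437892 on GRCm38, minus strand. RefSeq gives 3 promoter windows for it, and 1 of them held the core of the interferon-stimulated response element, written GAAANNGAAA and searched on both strands. The match, in capitals, begins 79 bases before an annotated start inside the gene, in a stretch at chr7:141435375-141435494 on GRCm38.p6, minus strand:
Slc25a22: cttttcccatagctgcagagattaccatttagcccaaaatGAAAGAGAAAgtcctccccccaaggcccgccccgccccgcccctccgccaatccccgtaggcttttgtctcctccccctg
This core was in 3.44% of all windows and in windows of 2 other carriers, Slc25a15 and Slc37a1, neither of which was called in a comparison of IFNα with its control.

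Other effects of IFNα were smaller or rested on few counts. With IFNα alone, Slc7a5, Slc1a4 and Slc25a22 were called higher and Slc39a13 lower. Against CpG, CpG + IFNα also lowered Slc25a45 and Slc25a16, both mitochondrial carriers. Slc25a45 measured 27.3, 38.5 and 20.3 CPM in the unstimulated libraries, 25.2, 45.0 and 37.4 with IFNα, 4.91, 6.42 and 7.99 with CpG and 4.36, 2.76 and 0.514 with CpG + IFNα, and its difference (-1.33 ± 0.48, adjusted p = 0.068) ended as a call without CpG replicate 2 or 3 (-1.35 and -1.12) and without CpG + IFNα replicate 2 or 3 (-1.42 and -0.93). Slc25a16 measured 17.3, 11.8 and 10.6 CPM in the unstimulated libraries, 10.1, 14.6 and 16.8 with IFNα, 19.6, 17.8 and 14.5 with CpG and 6.55, 6.55 and 11.8 with CpG + IFNα (-1.07 ± 0.29, adjusted p = 0.01), and this call ended without CpG replicate 1 (-0.96), CpG + IFNα replicate 1 (-0.96) or CpG + IFNα replicate 2 (-0.89). At any fold change, 12 carriers had a higher and 7 a lower level with CpG + IFNα than with CpG at an adjusted p under 0.1, against 6.54% and 8.83% of all tested genes, among them Slc3a2 (0.39 ± 0.11, adjusted p = 0.02), Slc1a5 (0.37 ± 0.11, adjusted p = 0.026) and Slc7a6os (0.87 ± 0.17, adjusted p = 2.7e-04). Of the 15 amino acid carriers 0 were called between CpG + IFNα and CpG by edgeR and 0 by DESeq2, 6 had an unadjusted p under 0.05 (23.3% of all tested genes did), and the median was 0.30 (all tested genes, -0.04).

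The interaction was called for 7 members. Slc2a1 was -0.996 ± 0.20 with IFNα alone and 0.14 ± 0.17 with IFNα on top of CpG, an interaction of 1.14 ± 0.26, adjusted p = 0.0041, and the call ended without unstimulated replicate 1 (0.91). Slc7a6os, a gene next to Slc7a6 whose product is not a carrier, measured 52.8, 46.0 and 44.1 CPM in the unstimulated libraries, 31.3, 38.3 and 25.9 with IFNα, 32.5, 42.1 and 46.9 with CpG and 75.8, 86.9 and 58.1 with CpG + IFNα, an interaction of 1.43 ± 0.27, adjusted p = 4.0e-04. Slc25a1, the citrate carrier, measured 22.7, 26.7 and 35.3 CPM in the unstimulated libraries, 53.5, 43.8 and 45.0 with IFNα, 54.0, 42.8 and 46.4 with CpG and 33.3, 36.9 and 31.9 with CpG + IFNα. IFNα went with a higher level alone (0.72 ± 0.20, adjusted p = 0.0077) and with a lower level on top of CpG (-0.48 ± 0.16, adjusted p = 0.05), both under the fold threshold, and the interaction was -1.20 ± 0.26, adjusted p = 0.0017. For Slc1a4 (-2.47 ± 0.74, adjusted p = 0.031) the interaction rests on the 3 unstimulated counts. It was not called with DESeq2 or without unstimulated replicate 3 (-2.52 and -2.35).

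The calls of the other 3 were lost more often. Slc25a45 (-1.71 ± 0.55, adjusted p = 0.043) was no longer called without unstimulated replicate 3 (-1.44), CpG replicate 3 (-1.502) or CpG + IFNα replicate 3 (-1.31). Slc12a9 (1.13 ± 0.42, adjusted p = 0.093) lost its call with each of 9 libraries left out in turn (values from 0.89 without CpG + IFNα replicate 3 to 1.22 without unstimulated replicate 3), with DESeq2 (1.19), with no filter (1.19) and with counts drawn to the smallest total (0.62). Slc25a16 (-1.16 ± 0.43, adjusted p = 0.091) lost it with each of 8 left out in turn (from -0.94 without unstimulated replicate 3 to -1.15 without CpG replicate 2), and with DESeq2 (-1.12), RLE scaling (-1.12), library size only (-1.08), no filter (-1.100) and counts drawn to the smallest total (-0.79).

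**Figure D5:**
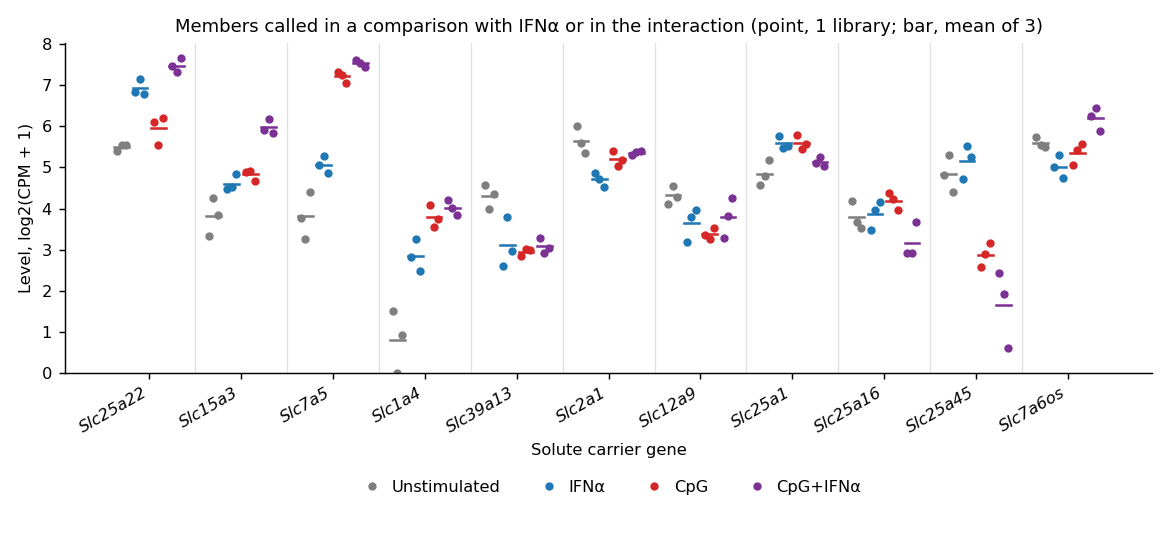
Levels of the 11 members called in a comparison of IFNα with its control or in the interaction, of which Slc7a6os is not a carrier. The y axis is log2(CPM + 1), each point is 1 library, each short bar the mean of 3, and colours are the 4 groups; Slc25a22 is higher in all 6 libraries with IFNα than in all 6 without it, and Slc15a3 is highest with CpG + IFNα.

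Carriers outside the naming pattern were counted as a list of 61, such as families 35b to 35f, the major facilitator (Mfsd) genes, mitochondrial pyruvate carriers and Ucp2. Of 38 that were tested, 5 were higher and 14 lower with CpG (median -0.21), against 20.1% and 25.5% of all tested genes, and 3 were higher and 15 lower with CpG + IFNα (-0.30), against 20.3% and 25.6%. In this list 0 were called by edgeR or DESeq2 with IFNα alone or between CpG + IFNα and CpG, where 6 and 7 had an unadjusted p under 0.05 by edgeR, as did 30.2% and 23.3% of all tested genes. Some had an adjusted p under 0.1 by edgeR below the fold threshold. Against CpG, CpG + IFNα was lower for Mpc2 (-0.90, adjusted p = 2.8e-07), Xpr1 (-0.70, adjusted p = 0.02) and Mtch1 (-0.45, adjusted p = 0.076). It was higher for Mfsd2a (0.60, adjusted p = 0.016). With IFNα alone, Xpr1 (-0.76), Slc66a2 (-0.99), Slc35b2 (-0.74) and Slc35c2 (-0.70) were lower. Slc66a2 is in this list as well as among the members. Mpc2, a subunit of the mitochondrial pyruvate carrier, rose from 56.0 ± 6.85 to 157 ± 10.6 CPM (1.49 ± 0.13, adjusted p = 1.3e-11) and measured 84.1 ± 1.99 CPM with CpG + IFNα, with an interaction of -1.11 ± 0.19, adjusted p = 1.3e-04. Mfsd2a, a carrier of lysophosphatidylcholine, rose from 1.78 ± 1.77 to 35.7 ± 3.75 CPM, and Mfsd5 rose from 34.3 ± 3.85 to 71.8 ± 9.27 CPM (1.06 ± 0.19, adjusted p = 8.3e-06). Ucp2, an uncoupling protein of mitochondria, fell from 749 ± 94.5 to 281 ± 23.9 CPM (-1.41 ± 0.11, adjusted p = 9.0e-13), the phosphate exporter Xpr1 from 80.3 ± 6.66 to 23.9 ± 3.84 CPM (-1.75 ± 0.17, adjusted p = 1.1e-10), and Spns2, a sphingosine 1-phosphate exporter, from 25.03 ± 5.41 to 0.576 ± 0.618 CPM (adjusted p = 3.3e-10).

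A list of 36 carrier partners and regulators had 23 tested genes, of which 5 were higher and 6 lower with CpG, 5 and 9 with CpG + IFNα, 0 and 2 with IFNα alone, and 0 and 3 in CpG + IFNα against CpG. Among all tested genes the shares called higher and lower were 20.1% and 25.5%, 20.3% and 25.6%, 4.56% and 4.07%, and 2.95% and 2.01% in these comparisons. The 3 lower with CpG + IFNα than with CpG were the ubiquitin ligases Nedd4 (-1.07 ± 0.16, adjusted p = 4.6e-06) and Nedd4l (-1.20 ± 0.34, adjusted p = 0.015), which take many carriers off the membrane, and Sesn3 (-1.07 ± 0.15, adjusted p = 2.0e-06), of the sestrin family that restrains mTORC1. Nedd4 was also lower with IFNα alone, 6.80 ± 3.83 against 43.6 ± 5.17 CPM (-2.60 ± 0.28, adjusted p = 5.2e-09). Sestrins did not move together. Sesn2 rose with CpG (1.19 ± 0.32, adjusted p = 0.0015) and with CpG + IFNα (1.81 ± 0.29, adjusted p = 2.0e-06), while Sesn1 fell with CpG from 113 ± 21.5 to 15.9 ± 4.74 CPM (-2.86 ± 0.20, adjusted p = 3.2e-14).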

How the data were processed

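FO B cells sorted from spleen gave 12 RNA libraries, read by 3′ sequencing with molecular identifiers. The authors deposited unnormalized molecule counts per gene, made, per the labels and the study's methods, with UMI-tools 1.1.2, Trim Galore 0.6.7, HISAT2 2.2.1 on GRCm38 and featureCounts 2.0.1, with Tlr9 extended at its end. All gene identifiers matched GENCODE M21, used for positions and overlaps.

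From the counts, edgeR 4.0.16 (R 4.3.3) fitted 1 quasi-likelihood model of 4 groups with 8 residual degrees of freedom, after filterByExpr and TMM scaling, to 9431 genes; CPM are on the same scaling. A call needed an adjusted p under 0.1 and more than 1 log2 unit of change. The script was tested on simulated data. DESeq2 1.42.0 was an alternative. Depth was 922450 to 2923865 counts per library, and exact intervals cover counting error only.

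Members, lists, gene pairs and promoter motifs were chosen with earlier results of these data known. Named members were a fixed list of 39 genes (31 are members), the 6 of smallest p in each direction and comparison among those called without overlap of replicates, all called between CpG + IFNα and CpG, the 3 most abundant per substrate group and those next to the minimum total, 60 in all. Other members and regulators named were chosen after their values were seen. Promoters were RefSeq windows on GRCm38.p6. Some genes are not reported here.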

Additional observations from a re-analysis of the deposited data

Results flagged for a closer look

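For 7 members, of which Slc7a6os is not a carrier, the interaction term of the edgeR fit was called. For these the response to IFNα alone was not the response to IFNα on top of CpG. The difference on the log2 scale was positive for Slc7a6os (1.43), Slc2a1 (1.14) and Slc12a9 (1.13), and negative for Slc1a4 (-2.47), Slc25a45 (-1.71), Slc25a1 (-1.20) and Slc25a16 (-1.16). Among all tested genes 3.09% were called positive and 3.17% negative. Slc7a6os and Slc25a1 held their calls under each of the 19 alternative fits that gave an interaction, and the other 5 lost theirs under at least 1. With a log2 difference over 2 required, Slc1a4 alone of the 7 would be called. Whether the unstimulated cells were cultured is not given in the sources used here, and a stimulus and the time in culture cannot be told apart in the interaction.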

How the results depend on the processing

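For the named carriers 79 calls were made, of which 61 held under every alternative fit made for them (20 for each comparison between groups and 19 for the interaction, which the fit of only the groups compared cannot give) and 18 were lost under at least 1; 0 changed direction. With a log2 fold change over 2, IFNα kept 1 call higher and 0 lower, CpG 10 and 10, CpG + IFNα 12 and 10, CpG + IFNα against CpG 0 and 0, and the interaction 0 and 1. Calls lower with IFNα alone, 1 as reported, were 2 with DESeq2, 3 with RLE scaling, 4 with library size only, 2 with only the groups compared, 2 with counts drawn to the smallest total, and 0 at a minimum total of 240. Calls lower for CpG + IFNα against CpG, 2 as reported, were 1 with only the groups compared, 4 with counts drawn to the smallest total, and 1 at a minimum of 240. Negative interactions, 4 as reported, were 2 with DESeq2 and 2 at a minimum of 240. With 1 library left out at a time, calls higher and lower ranged from 3 to 3 and 1 to 5 for IFNα, 23 to 25 and 22 to 26 for CpG, 25 to 28 and 23 to 26 for CpG + IFNα, 2 to 3 and 0 to 2 for CpG + IFNα against CpG, and 2 to 5 and 2 to 4 for the interaction. The 5 calls lower with IFNα came without unstimulated replicate 3, the 0 without CpG + IFNα replicate 2, and the 5 positive interactions without IFNα replicate 3. An alternative chosen after seeing the data, without mitochondrial, ribosomal RNA and immunoglobulin rows, changed no call. Counts drawn to the smallest total ended the calls of Slc7a1 (0.98) and Slc15a3 (0.88) with CpG, Slc3a2 (0.91) with CpG + IFNα, Slc39a13 (-1.25) with IFNα, Slc15a3 (0.85) and Slc25a16 (-0.56) in CpG + IFNα against CpG, and the interactions of Slc12a9 (0.62) and Slc25a16 (-0.79). The causes were not tested.

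Same-numbered libraries were not shown to be paired: correlations of their deviations ran from -0.07 to 0.22, though 10 of 12 libraries correlated best with one of their own number, a hint from the data and not from the design. Erythroid transcripts were also highest in number 1 and lowest in number 3 of all 4 groups. The deposited barcode list repeats the same 3 wild-type numbers in each condition and does not say whether a number is 1 mouse. A replicate block gave 24 calls higher and 25 lower for CpG and lost 0 of the calls of named carriers, with 1 added.

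Depth limits what can be read for low carriers: 1 count was 0.345 to 1.07 CPM, and Slc1a4, Slc14a1 and Slc26a11 had groups with 1 to 3 counts in all.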
